A study of Rattus norvegicus with 172 samples.

Results

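The genes described here are 33 rat genes of cholesterol synthesis and sterol control, from the enzymes of the mevalonate pathway to the proteins that sense, take up, carry and degrade cholesterol. They were chosen by symbol from a named list, and a probe set counted as a member when its annotated gene symbol was one of the 33. Probe sets were found for 31 of the 33, which left out Hmgcs1, the enzyme that makes HMG-CoA, and Npc1, a lysosomal cholesterol transporter. All 31 passed the filter on low signal and belonged to the 10758 genes tested. Where a gene had several probe sets, the brightest one stands for it.

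The study measured RNA in granule cells, the main neurons of the hippocampal dentate gyrus, in 4 rat models of epilepsy. It used 172 one-colour Affymetrix arrays from 164 rats, which 7 laboratories supplied in 28 groups of 6 rats, except for 5 rats in the SSSE control and day 3 groups and 4 at SSSE day 10. Each laboratory had its own controls, so every change below is against controls of the same laboratory (A or B where a model had a pair of them). All rats were male Sprague-Dawley rats of 175 to 250 g, and no group carried a genetic change. In the pilocarpine model, rats first received methylscopolamine and then pilocarpine at 300 to 350 mg/kg or saline, and status epilepticus, a prolonged seizure, was stopped with pentobarbital after 90 min. In the kainate model, rats received kainic acid at 5 mg/kg or saline every hour until status epilepticus. In kainate laboratory A status epilepticus ran 6 to 8 h to its own end. Laboratory B started with 7.5 mg/kg and cut seizures short with pentobarbital at 90 min. Pilocarpine, kainate and SSSE rats were taken at day 1, 3 or 10, and kindled rats at stage 2, 4 or 5. The labels do not spell out SSSE, and the treatment text used here does not reach the SSSE and kindling protocols. SSSE came from 1 laboratory, so its changes have no second laboratory beside them.

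The granule cell layer was cut by laser from 10 µm sections stained with cresyl violet, and at least 10 ng of RNA with an integrity number above 7 was used per rat. Summed over the 12 of 14 granule cell markers tested, control rats lay between 13.68 and 14.47 on the log2 scale. The 12 of 14 astrocyte markers summed to between 12.29 and 13.71, so RNA of other cells was present in every group of controls. The 10 of 12 oligodendrocyte markers varied more between control rats, from 9.93 to 14.09. The 12 of 14 microglia and macrophage markers summed to between 8.80 and 10.80, too low to show by itself that these cells were present. In such bulk samples, fewer cells of a type and less RNA per cell cannot be told apart. In 2 rats the labels contradict each other. SSSE day 1 rat 3 has day 1 in its title, but its source name and harvest time say control. Kindling A stage 2 rat 4 is called a kainate rat, though its laboratory and stage are those of kindling. Each was kept in the group named here. Leaving both out took the count of members lower at SSSE day 1 from 4 to 3, and left the other counts of members against controls as they were. Levels are log2(signal + 16) and changes are differences of these, with the standard error (SE). A gene counted as changed when limma's Benjamini-Hochberg adjusted p, over all 10758 genes, was under 0.05.

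Cholesterol is made in cells from acetyl-CoA. The mevalonate steps yield isoprene units, which are joined into farnesyl diphosphate and squalene, and squalene is oxidised, closed into lanosterol and trimmed to cholesterol. When the membrane of the endoplasmic reticulum is rich in sterol, the Insig proteins hold Scap and its cargo, the SREBP transcription factors, in place. When sterol is low, Scap carries SREBP to the Golgi, where it is cut and freed to switch on most genes of synthesis, and Insig1 itself. In the brain, neurons turn surplus cholesterol into 24S-hydroxycholesterol through Cyp46a1, and glia pass cholesterol to neurons on Apoe particles loaded by Abca1.

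RefSeq's GRCr8 table held promoter windows, from 250 bases before to 50 after the start site, for 27 of the 33 genes. The 250 bases before the start are shown for the 4 synthesis and sensing genes with a window that fell most at pilocarpine day 3, with CCAAT, on either strand, in capitals. Insig1 lies on the minus strand (chr4:8057770-8058019), Idi1 on the minus strand (chr17:66547525-66547774), Cyp51 on the plus strand (chr4:30991443-30991692) and Msmo1 on the plus strand (chr16:29746863-29747112). All are written 5′ to 3′ on the strand of the gene.
Insig1: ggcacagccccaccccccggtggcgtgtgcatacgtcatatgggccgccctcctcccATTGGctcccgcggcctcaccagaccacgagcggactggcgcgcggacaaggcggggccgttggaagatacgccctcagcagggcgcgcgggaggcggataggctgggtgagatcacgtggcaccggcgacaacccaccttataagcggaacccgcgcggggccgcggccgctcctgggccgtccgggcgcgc
Idi1: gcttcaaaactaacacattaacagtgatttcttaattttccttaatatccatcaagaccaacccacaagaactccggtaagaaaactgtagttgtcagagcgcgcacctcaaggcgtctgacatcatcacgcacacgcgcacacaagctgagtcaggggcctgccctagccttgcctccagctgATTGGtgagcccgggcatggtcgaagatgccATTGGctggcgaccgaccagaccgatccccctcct
Cyp51: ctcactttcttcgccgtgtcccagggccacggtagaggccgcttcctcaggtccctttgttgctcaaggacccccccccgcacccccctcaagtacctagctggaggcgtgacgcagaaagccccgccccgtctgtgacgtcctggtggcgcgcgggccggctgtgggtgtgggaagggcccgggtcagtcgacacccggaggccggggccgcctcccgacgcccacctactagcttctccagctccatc
Msmo1: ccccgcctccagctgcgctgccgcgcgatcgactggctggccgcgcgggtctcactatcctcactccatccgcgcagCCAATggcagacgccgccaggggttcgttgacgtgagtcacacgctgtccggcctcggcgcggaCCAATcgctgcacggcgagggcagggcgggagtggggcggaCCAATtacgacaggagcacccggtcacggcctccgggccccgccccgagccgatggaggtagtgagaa
Searched on both strands of the whole 300-base window, the CCAAT box (CCAAT) was found in 21 of the 27 members, or 77.8%, and in 37.5% of all 33469 windows. The GC box (GGGCGG) was found in 23 of the 27, or 85.2%, and in 33.1% of all windows. A member counted when any of its windows matched (3 for Apoe and 2 for Srebf1), while the share of all windows counts single windows. The sterol response element in its fixed spelling (TCACNCCAC) was found in 0 of the 27 and in 1.12% of all windows, which says only that these letters are not in the windows. Of the sequences shown, Msmo1 holds 3 CCAAT matches, Idi1 holds 2, Insig1 holds 1 and Cyp51 holds none. The windows were not chosen by base composition, and matches describe sequence, not binding.

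Nearly all members that changed were lower than in controls. At pilocarpine day 1, 12 of 31 members were lower and 0 higher, where 16.3% of all genes were lower and 15.8% higher. At pilocarpine day 3, 12 were lower and 1 was higher, against 3.92% and 7.74% of all genes, and at day 10, 7 were lower and 0 higher, against 5.11% and 3.82%. At kainate day 1, 12 were lower and 1 was higher, where 19.4% of all genes were lower and 22.2% higher. A sign of RNA quality moved after kainate, and not at day 1 alone. Gapdh control signal at the 3′ end over that at the 5′ end, which is higher in more degraded RNA, averaged 1.515 on the log2 scale in laboratory A controls (1.198 to 2.138) and 1.115 at day 1 (0.889 to 1.264), and 1.664 (1.425 to 2.049) and 1.468 (1.21 to 1.715) in laboratory B. At days 3 and 10 this ratio averaged 1.228 and 1.165 in laboratory A and 1.679 and 1.562 in laboratory B. Its part in the kainate counts was not tested. The averages of controls and treated rats at pilocarpine day 1 were 2.073 and 1.969 in laboratory A and 1.907 and 1.913 in laboratory B. At kainate day 3, 3 members were lower and 0 higher, against 3.3% and 4.67% of all genes, and at day 10, 2 and 0, against 3.71% and 2.57%. At SSSE day 1, 4 members were lower and 0 higher, against 7.02% and 5.51% of all genes. At SSSE day 3, 1 was lower and 0 higher, against 1.48% and 1.66%, and at day 10, 1 and 0, against 0.167% and 0.177%.

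Kindling moved few members. At stages 2 and 4, 0 members passed limma's test, as did 0% of all genes, and 3 and 2 members had an unadjusted p under 0.05, against 523 and 504 of all genes. At stage 5, 2 members were lower and 0 higher, where 3.87% of all genes were lower and 3.23% higher. Over the 12 comparisons, 56 of 372 tests of members passed as lower and 2 as higher. In single comparisons, from 0% to 19.4% of all genes were lower and from 0% to 22.2% higher. The calls of members fell on 21 that were lower at least once and 2 that were higher at least once. The other 8 passed in none (Mvk, Mvd, Fdps, Tm7sf2, Nsdhl, Sc5d, Lrp8 and Soat1), and no member passed in both directions. The median change of the 31 members was −0.28, −0.31 and −0.31 at pilocarpine days 1, 3 and 10, and −0.19, −0.15 and 0.05 at the same days after kainate. It was −0.12, −0.13 and −0.20 in SSSE and between 0.01 and 0.02 in kindling, while the median of all genes stayed between −0.02 and 0.02.

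**Figure D1:**
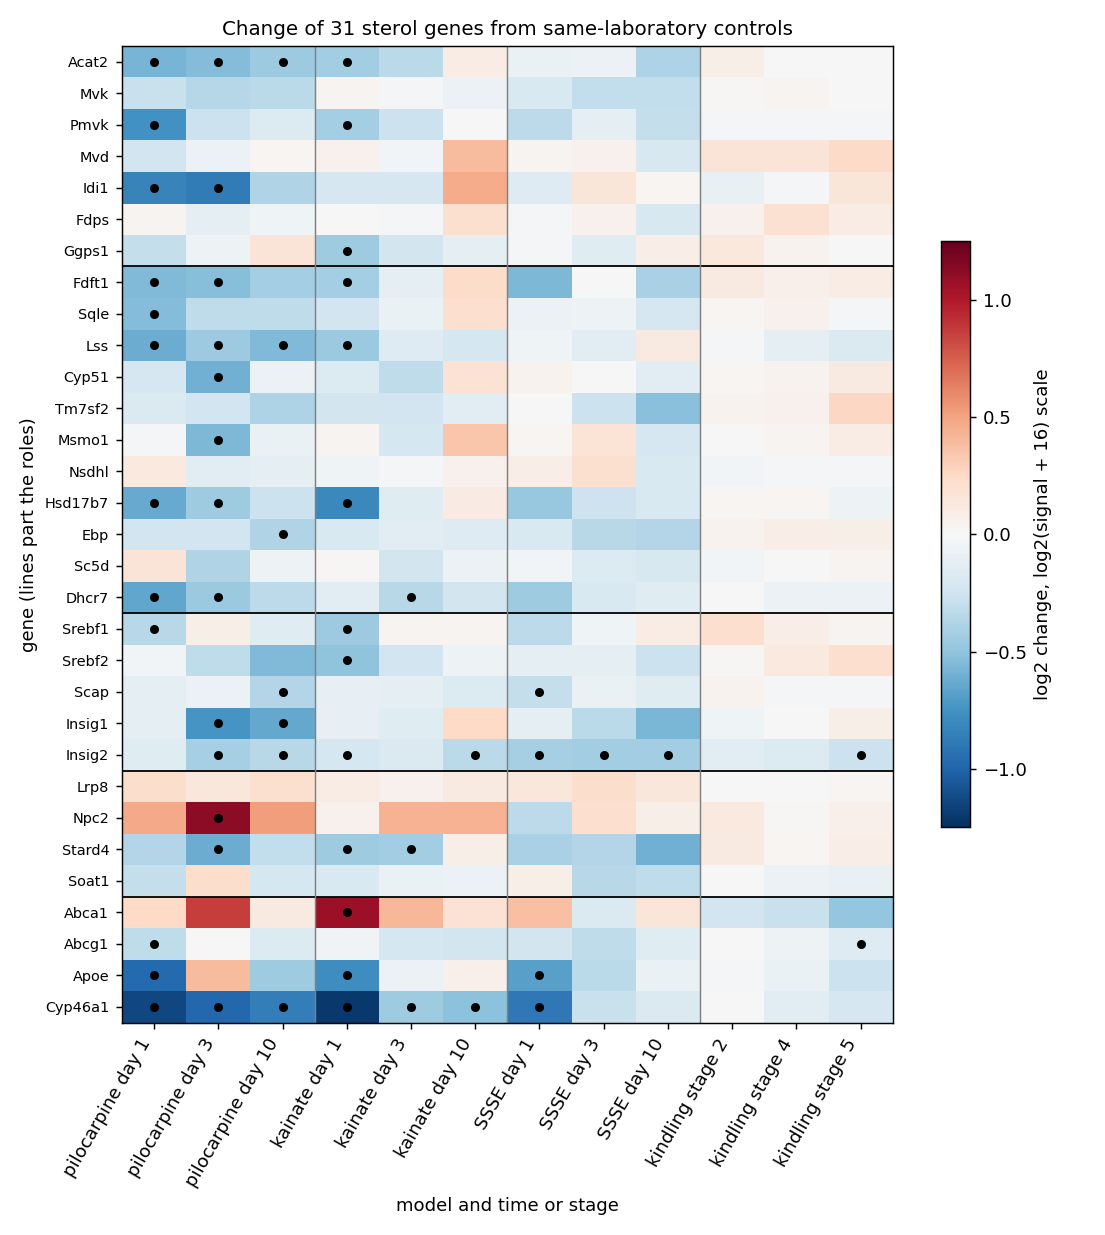
Log2 change of the 31 members (rows, grouped by role between horizontal lines) against same-laboratory controls in the 12 comparisons (columns), with blue for lower, red for higher and a black dot where limma's adjusted p was under 0.05. Blue with dots fills much of the columns for pilocarpine and kainate day 1, the rows of Insig2 and Cyp46a1 carry dots furthest across, and the 2 red cells with dots are Npc2 at pilocarpine day 3 and Abca1 at kainate day 1.

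The 18 synthesis enzymes tested, of 19, were read together in each rat as the median of their deviations from the control mean of the rat's laboratory. In pilocarpine laboratory A the lowest, median and highest of these rat medians were −0.61, −0.43 and −0.15 at day 1, −0.59, −0.36 and −0.22 at day 3, and −0.41, −0.24 and −0.07 at day 10. In laboratory B they were −0.34, −0.27 and −0.12 at day 1, −0.48, −0.35 and −0.22 at day 3, and −0.45, −0.15 and −0.06 at day 10. All 36 treated pilocarpine rats were therefore below 0, but the ranges overlapped with the controls, which ran from −0.30 to 0.34 in laboratory A and from −0.24 to 0.09 in laboratory B. Markers of other cell types, and of the granule cells, moved at some of these times. Of the 10 oligodendrocyte markers tested, of 12, 9 were below 0 at pilocarpine day 1, with a median of −0.53, and 1 passed as lower (Opalin, −0.78). Their summed log2 signal went from 11.05, 11.90 and 14.09 to 9.88, 11.89 and 12.68 in laboratory A and from 9.93, 11.12 and 13.05 to 9.86, 10.29 and 11.91 in laboratory B, with overlap in both. At pilocarpine days 3 and 10 their medians were 0.16 and −0.16, and none passed. Medians of the astrocyte markers were −0.71, 0.55 and −0.24 at the 3 times, and those of the granule cell markers −0.58, −0.26 and −0.22. Their part in the changes of the enzymes was not tested.

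After kainate, the rat medians in laboratory A were −0.34, −0.25 and −0.03 at day 1, −0.38, −0.23 and −0.04 at day 3, and −0.24, −0.05 and 0.36 at day 10. In laboratory B they were −0.36, −0.19 and −0.03 at day 1, −0.26, −0.15 and 0.02 at day 3, and −0.34, 0.04 and 0.79 at day 10. All 12 rats were below 0 at day 1 and 11 of 12 at day 3, but 6 of 12 at day 10, when single rats of both laboratories stood well above their controls. In the highest of these, laboratory B rat 2, 1 of the 18 enzymes was below the control mean. In SSSE, 5 of 6, 3 of 5 and 4 of 4 rats were below 0 at days 1, 3 and 10, with medians of −0.05, −0.05 and −0.23, and none of the enzymes passed the test there. In simulated data, 26% of log2 changes of 0.5 were recovered at SSSE day 1 and 14% at day 10. The simulated spread was pooled over all 28 groups and was not that of SSSE alone. These shares therefore do not measure how many falls of that size were missed in SSSE, and such misses remain possible. Among kindled rats the rat medians stayed between −0.16 and 0.27. The oligodendrocyte markers had a median of −0.31 at kainate day 1, with 9 of 10 below 0 and 1 passing (Ugt8, −0.31), and of −0.66 at SSSE day 1, with 10 of 10 below 0 and none passing. Their part was not tested here either.

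**Figure D2:**
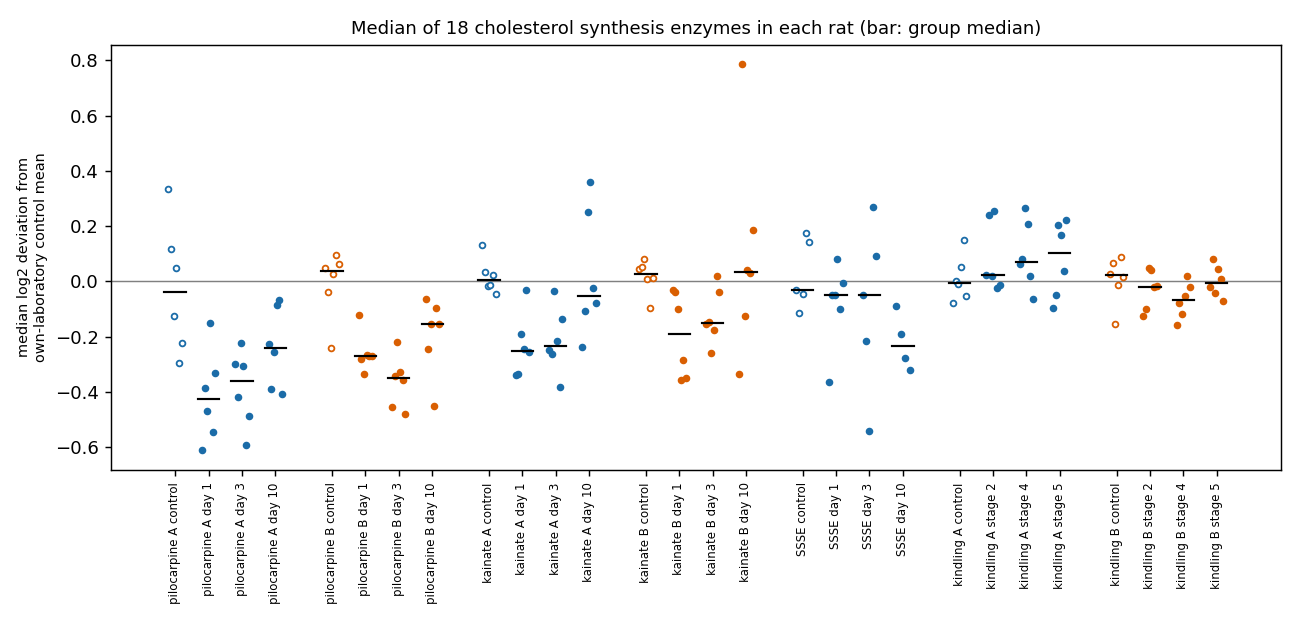
Median log2 deviation of the 18 synthesis enzymes from the control mean of the rat's own laboratory, 1 point per rat (open points controls, filled points treated; blue laboratory A or SSSE, orange laboratory B; bars are group medians). All 36 treated pilocarpine points lie below 0, while at kainate day 10 they run from −0.34 to 0.79.

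In the mevalonate steps, 7 of 8 genes were tested, and 3, 2 and 1 of them were lower at pilocarpine days 1, 3 and 10 and 3 at kainate day 1. None passed at the other times, in SSSE or in kindling. Of all genes, 16.3%, 3.92% and 5.11% were lower at pilocarpine days 1, 3 and 10 and 19.4% at kainate day 1. Acat2, the cytosolic thiolase that starts the pathway (probe set 1372462_at), was lower at all 3 pilocarpine times. In laboratory A its lowest, median and highest control values were 6.70, 7.03 and 7.42, against 5.90, 6.45 and 6.97 at day 1, 6.15, 6.50 and 7.17 at day 3 and 6.03, 6.72 and 6.98 at day 10. In laboratory B the controls were at 6.49, 6.70 and 7.01, against 5.70, 6.17 and 6.61, 5.75, 6.03 and 6.57, and 5.83, 6.32 and 6.49. Every treated median lay below the lowest control of its laboratory apart from day 10 in laboratory A, and the full ranges touched or overlapped. Acat2 fell by 0.58 ± 0.13 at day 1 (limma adjusted p = 0.000465), by 0.54 at day 3 (0.00365) and by 0.45 at day 10 (0.0211). At kainate day 1 it fell by 0.43 ± 0.13 (limma adjusted p = 0.00652).

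Pmvk, phosphomevalonate kinase (1373243_at), was lower at day 1 in both chemical models. In pilocarpine laboratory A it went from 8.25, 8.55 and 9.18 in controls to 7.55, 7.82 and 8.38 at day 1, and in laboratory B from 8.40, 8.56 and 8.89 to 7.46, 7.69 and 8.38. In 11 of 12 treated rats Pmvk was below every control of the same laboratory, and it fell by 0.76 ± 0.13, or 1.69-fold (limma adjusted p = 1.57e-05). At kainate day 1 it fell by 0.42 ± 0.09 (limma adjusted p = 0.000147), with 10 of 12 rats below their controls. It was then 0.49 ± 0.13 higher at pilocarpine day 3 than at day 1 (limma adjusted p of the difference = 0.00555).

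Idi1, the isomerase that makes the reactive isoprene unit (1368878_at), was lower at pilocarpine days 1 and 3. Laboratory A controls were at 6.49, 7.71 and 8.12, day 1 rats at 6.07, 6.54 and 7.49, and day 3 rats at 5.04, 6.37 and 6.80. Laboratory B controls were at 6.86, 7.01 and 7.35, day 1 rats at 5.88, 6.20 and 6.85, and day 3 rats at 6.09, 6.62 and 7.01. Day 1 rats of laboratory B all lay below their controls, while the other 3 groups overlapped with theirs. Idi1 fell by 0.83 ± 0.18 at day 1 (limma adjusted p = 0.000375) and by 0.88 ± 0.18 at day 3 (0.000726), and its second probe set gave −0.68 and −0.74. The kainate changes of −0.21 at day 1 and −0.21 at day 3 did not pass (limma adjusted p = 0.425 and 0.629). At kainate day 10 the change was 0.47 ± 0.20 (limma adjusted p = 0.164), with 1 rat of laboratory A at 9.35 and 1 of laboratory B at 8.57 above controls that reached 7.88 and 6.95. The pilocarpine minus kainate difference was −0.63 at day 1 (95% interval −1.13 to −0.12), −0.66 at day 3 (−1.17 to −0.16) and −0.84 at day 10 (−1.35 to −0.34), and passed limma's test at none of them (adjusted p = 0.149, 0.217 and 0.09).

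Ggps1, which makes the geranylgeranyl group for protein prenylation (1379556_a_at), was lower at kainate day 1. Its controls were at 6.71, 6.98 and 7.29 in laboratory A and 7.33, 7.79 and 8.14 in laboratory B, against 6.34, 6.74 and 6.79 and 6.81, 7.21 and 7.65 at day 1. It fell by 0.45 ± 0.10 (limma adjusted p = 0.000135), and its other probe sets gave −0.17 and −0.15. For Mvk, Mvd and Fdps, the kinase, decarboxylase and synthase between these steps, the smallest limma adjusted p over the 12 comparisons were 0.052, 0.0777 and 0.436.

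From squalene to cholesterol, 11 genes were tested, and 5, 6 and 2 were lower at pilocarpine days 1, 3 and 10, with median changes of −0.24, −0.45 and −0.32. Of all genes, 16.3%, 3.92% and 5.11% were lower at these times. After kainate 3 of the 11 were lower at day 1 and 1 at day 3, with medians of −0.19 and −0.16. Of all genes, 19.4% and 3.3% were lower there. Lss, which closes the ring to lanosterol (1372973_at), was lower in 4 comparisons. At pilocarpine day 1 it went from 6.79, 7.05 and 7.32 to 6.42, 6.51 and 6.68 in laboratory A and from 6.97, 7.08 and 7.63 to 5.97, 6.65 and 6.83 in laboratory B. The groups did not overlap in either laboratory, so all 12 treated rats were below their controls. Lss fell by 0.62 ± 0.12 at day 1, or 1.53-fold (limma adjusted p = 4.47e-05), by 0.46 at day 3 (0.00559), by 0.55 at day 10 (0.00148) and by 0.46 ± 0.13 at kainate day 1 (0.00368). Its second probe set gave −0.29 and −0.04 at day 1 of pilocarpine and kainate.

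Hsd17b7, the sterol 3-ketoreductase (1389430_at), showed the largest kainate change among the synthesis enzymes. Controls were at 7.31, 7.60 and 7.81 in laboratory A and 7.38, 7.47 and 7.75 in laboratory B, and day 1 rats at 6.68, 6.82 and 7.13 and at 6.25, 6.58 and 7.04. The groups did not overlap, with all 12 treated rats below their controls. It fell by 0.81 ± 0.10, or 1.75-fold (limma adjusted p = 3.2e-09), and its second probe set gave −0.38. It was 0.66 higher at day 3 than at day 1 and 0.91 higher at day 10 than at day 1 (limma adjusted p of the differences 8.48e-07 and 4.25e-10). After pilocarpine it fell by 0.63 ± 0.14 at day 1 (limma adjusted p = 0.000301) and by 0.45 at day 3 (0.0226).

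Dhcr7, the last reductase of the pathway (1368189_at), was lower at pilocarpine day 1 and differed there from kainate. Pilocarpine controls were at 7.03, 7.26 and 7.75 in laboratory A and 7.33, 7.76 and 7.89 in laboratory B, against 6.38, 6.85 and 6.97 and 6.35, 7.00 and 7.39 at day 1. Kainate controls were at 7.81, 7.95 and 8.10 and at 7.03, 7.15 and 7.40, against 7.51, 7.71 and 8.20 and 6.66, 7.15 and 7.63 at day 1. The pilocarpine ranges separated in laboratory A and barely overlapped in laboratory B, and the kainate ranges overlapped in both. Dhcr7 fell by 0.65 ± 0.11 after pilocarpine (limma adjusted p = 7.15e-06), while the kainate change was −0.13 (0.341). The difference of the models' changes was −0.52 (95% interval −0.82 to −0.21) and passed limma's test (adjusted p = 0.0374). It was the 1 member of 31 that differed between these models at day 1, where 3.63% of all genes did. Dhcr7 was also lower at pilocarpine day 3, by 0.47 (limma adjusted p = 0.00237), and at kainate day 3, where it fell by 0.35 (0.0306).

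Cyp51 and Msmo1, which remove methyl groups from lanosterol, were lower at pilocarpine day 3 alone among the 12 comparisons. For Cyp51 (1367979_s_at), laboratory A went from 9.09, 9.39 and 9.95 in controls to 9.11, 9.28 and 9.81 at day 1 and 8.40, 8.94 and 9.61 at day 3. Laboratory B went from 9.38, 9.57 and 10.07 to 8.86, 9.30 and 9.80 and then to 8.45, 8.94 and 9.19. At day 3 the groups were apart in laboratory B and overlapped in laboratory A, and Cyp51 fell by 0.60 ± 0.15 (limma adjusted p = 0.00374; second probe set −0.38). Msmo1 (1368275_at) went from 8.82, 9.17 and 10.00 to 8.31, 8.50 and 9.29 at day 3 in laboratory A and from 8.60, 8.98 and 9.24 to 8.40, 8.50 and 8.74 in laboratory B. It fell by 0.56 ± 0.13 (limma adjusted p = 0.00217), with 9 of 12 rats below their controls. From day 1 to day 3 the difference was −0.39 for Cyp51 and −0.53 for Msmo1 (limma adjusted p = 0.0475 and 0.00209). Both were higher at day 10 than at day 3, by 0.53 and 0.48 (0.0461 and 0.0392), but no member passed in that difference without 5 doubted rats. These are SSSE day 3 rat 4, kainate B day 10 rat 5, pilocarpine A day 10 rats 2 and 5 and pilocarpine B day 10 rat 2, whose median correlation with their group lay more than 0.02 below that of the group.

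Fdft1, squalene synthase (1367839_at), fell by 0.55 ± 0.15 at pilocarpine day 1 (limma adjusted p = 0.00367), by 0.53 at day 3 (0.014) and by 0.42 at kainate day 1 (0.0196). Its second probe set gave −0.80 and −0.68 at pilocarpine days 1 and 3. Sqle, the epoxidase that follows (1387017_at), was lower at pilocarpine day 1 alone. It went from 7.99, 8.31 and 8.78 to 7.46, 7.68 and 8.15 in laboratory A and from 7.84, 8.32 and 8.57 to 7.15, 7.89 and 8.31 in laboratory B, with overlap in both. Sqle fell by 0.54 ± 0.15 (limma adjusted p = 0.00527). Ebp, a sterol isomerase, fell by 0.38 ± 0.10 at pilocarpine day 10 (0.0151). For Nsdhl, Sc5d and Tm7sf2, a dehydrogenase, a desaturase and a reductase of the same branch, the smallest limma adjusted p were 0.401, 0.0537 and 0.0613. Sc5d was lower at day 3 than at day 1 after pilocarpine, by −0.54 (limma adjusted p of the difference = 0.00235).

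The 5 sensing genes were lower in different models. Insig2, one of the 2 anchors of Scap (1389377_at), was below its controls in all 12 comparisons and passed in 8 of them. In SSSE the control rats were at 9.58, 9.59, 9.61, 9.62 and 9.72, and the day 1 rats at 9.12 to 9.37 with a median of 9.20. The day 3 rats were at 9.16, 9.17, 9.18, 9.21 and 9.23 and the day 10 rats at 9.14, 9.14, 9.22 and 9.26. No SSSE rat reached the lowest control at any of the 3 times. Insig2 fell by 0.41 ± 0.06 at day 1 (limma adjusted p = 0.000583), by 0.44 ± 0.06 at day 3 (0.000876) and by 0.44 ± 0.07 at day 10 (0.00423). At SSSE days 3 and 10 it was the 1 member that changed, but the day 10 call was lost with all 28 groups in one fit (limma adjusted p = 0.219) and with the rat number as a block (0.0653), which left 0 members there.

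Insig2 was lower in the other models as well. Its changes were −0.41 ± 0.10 at pilocarpine day 3 (limma adjusted p = 0.00547), −0.35 at day 10 (0.0264, but 0.117 without the doubted rats), −0.22 ± 0.09 at kainate day 1 (0.0339), −0.33 ± 0.09 at kainate day 10 (0.0117) and −0.27 ± 0.06 at kindling stage 5 (0.00607). Kindling laboratories A and B gave −0.20 and −0.34. The second Insig2 probe set (1393690_at) was also below 0 in 10 comparisons, with −0.68 at SSSE day 10, but gave 0.25 and 0.23 at day 1 of pilocarpine and kainate. The kainate day 1 change is therefore not shared by both probe sets, and their mean gave 0 there.

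Insig1, the other anchor and itself a target of SREBP (1367894_at), was lower after pilocarpine at the later times. Laboratory A controls were at 7.07, 7.31 and 7.41, day 1 rats at 6.57, 7.13 and 7.73, day 3 rats at 5.01, 6.76 and 7.02, and day 10 rats at 4.52, 6.62 and 7.16. Laboratory B controls were at 6.12, 7.00 and 7.37, day 1 rats at 6.25, 6.76 and 7.51, day 3 rats at 5.91, 6.28 and 6.58, and day 10 rats at 6.16, 6.78 and 7.00. All 6 day 3 rats of laboratory A lay below their controls, and in laboratory B the groups overlapped. Insig1 fell by 0.74 ± 0.21 at day 3 (limma adjusted p = 0.0139) and differed by −0.61 from day 1 (0.0274). The day 10 change of −0.64 ± 0.21 (limma adjusted p = 0.0438) was −1.02 in laboratory A and −0.25 in laboratory B, and became −0.38 (0.236) without the doubted rats, 1 of which was the rat at 4.52.

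At kainate day 10 Insig1 was at 6.80, 7.11 and 8.79 in laboratory A and 6.83, 7.27 and 8.59 in laboratory B, against controls of 6.85, 7.27 and 7.33 and of 6.71, 7.15 and 7.30. The medians stayed close to the controls, and 1 high rat stood out in each laboratory. The difference of the pilocarpine and kainate changes at day 10 was −0.88 (95% interval −1.34 to −0.43; limma adjusted p = 0.048), the 1 member where 0.465% of all genes differed. Without the doubted rats it was −0.63 (limma adjusted p = 0.211).

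**Figure D3:**
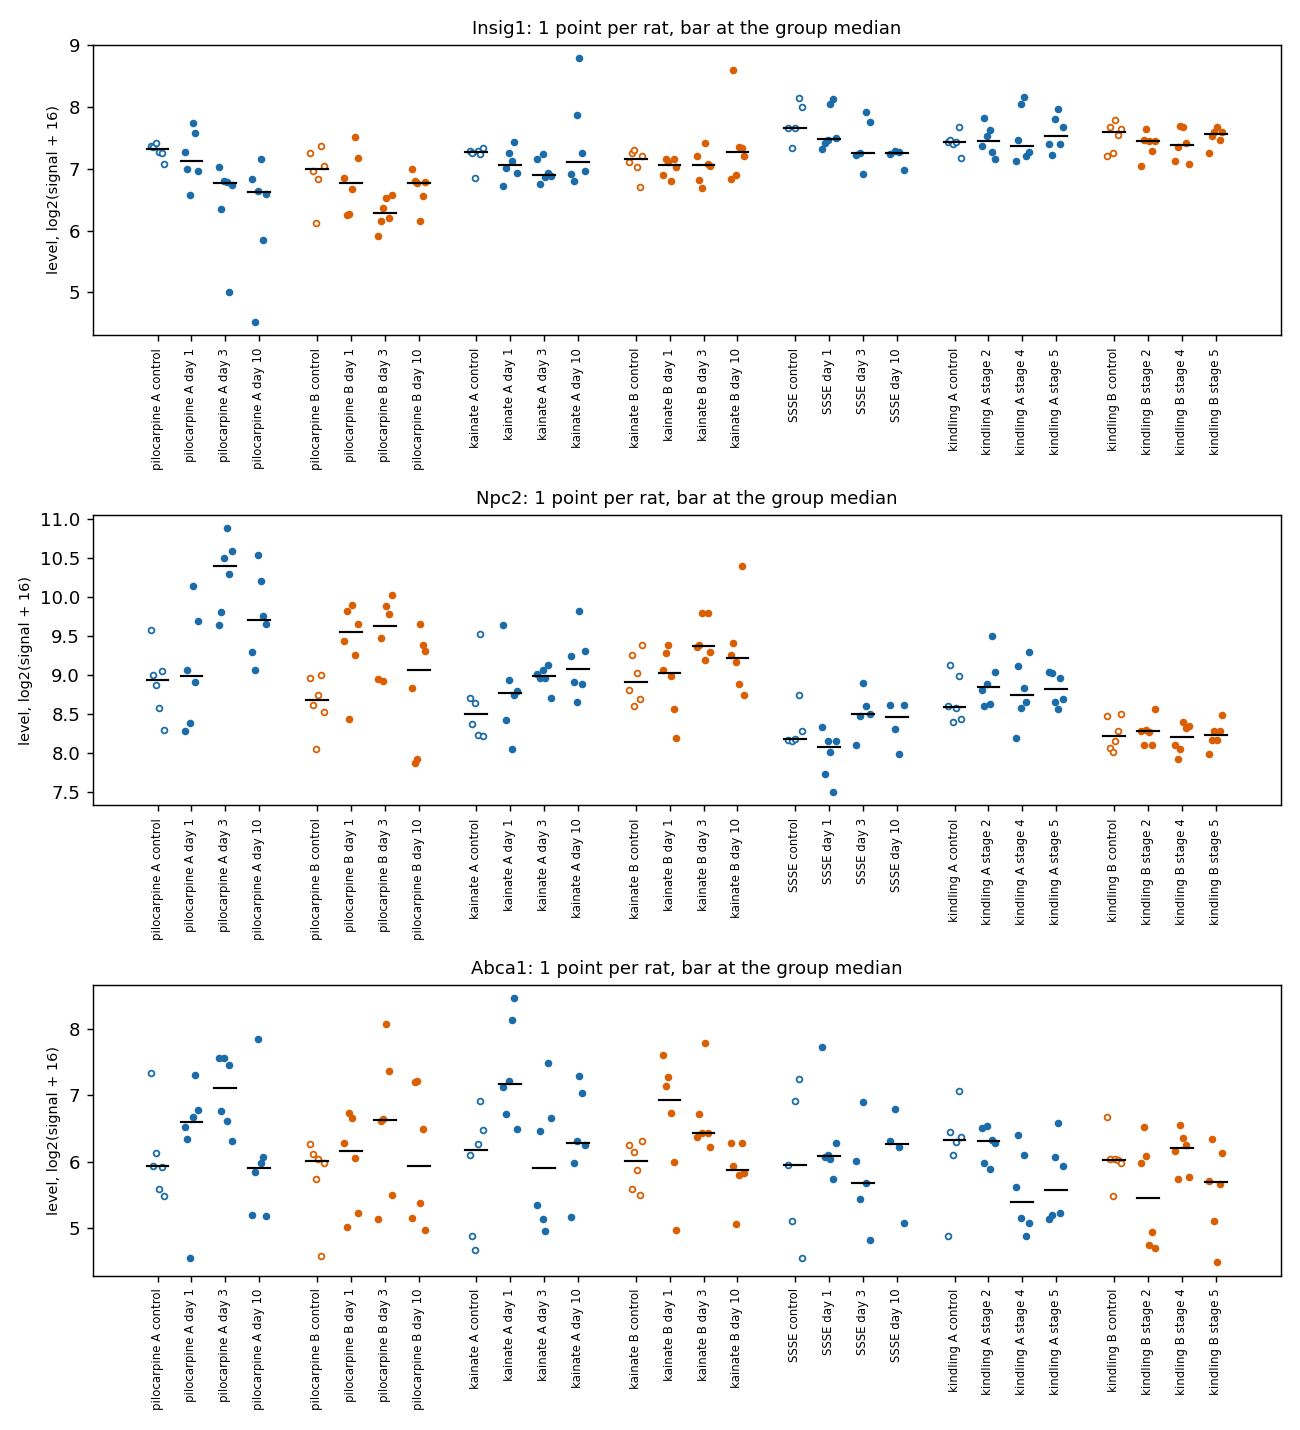
Levels of Insig1, Npc2 and Abca1, as log2(signal + 16), 1 point per rat (open points controls, filled points treated; blue laboratory A or SSSE, orange laboratory B; bars are group medians). Insig1 reaches down to 5.01 at pilocarpine day 3 and 4.52 at day 10 and up to 8.79 at kainate day 10, and Npc2 reaches 10.88 at pilocarpine day 3.

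The transcription factors Srebf2, which mainly drives cholesterol genes, and Srebf1, which mainly drives fatty acid genes, were lower at kainate day 1. Srebf2 (1371979_at) went from 9.40, 9.75 and 9.99 to 9.22, 9.41 and 9.73 in laboratory A and from 9.51, 9.94 and 10.34 to 8.17, 9.46 and 9.50 in laboratory B. In laboratory B all 6 treated rats were below the controls, 1 of them far down at 8.17, and in laboratory A the groups overlapped. Srebf2 fell by 0.50 ± 0.13 (limma adjusted p = 0.00206). At pilocarpine day 10 its change of −0.56 ± 0.24 did not pass (0.135). Srebf1 (1388426_at) fell by 0.45 ± 0.12 at kainate day 1 (limma adjusted p = 0.00249) and by 0.35 ± 0.14 at pilocarpine day 1 (0.0454), but the latter was −0.65 in laboratory A and −0.04 in laboratory B. Its second probe set gave −0.06 and 0.10. Scap, the escort of SREBP (1389567_at), fell by 0.30 ± 0.08 at SSSE day 1 (limma adjusted p = 0.0273) and by 0.36 ± 0.11 at pilocarpine day 10 (0.0274). The SSSE value did not pass without day 1 rat 3, whose labels contradict each other (limma adjusted p = 0.0509), nor without day 1 rat 2 or 5 or control rat 1, 4 or 5 (0.051 to 0.0669). The pilocarpine value became −0.24 (0.203) without the doubted rats.

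Uptake and movement inside the cell held the larger of the 2 rises. Npc2, the soluble protein that hands cholesterol out of lysosomes (1398892_at), rose at pilocarpine day 3. It went from 8.30, 8.94 and 9.58 to 9.64, 10.40 and 10.88 in laboratory A and from 8.05, 8.67 and 9.00 to 8.92, 9.63 and 10.02 in laboratory B. In 10 of 12 rats Npc2 was above every control of the same laboratory, with no overlap in laboratory A. It rose by 1.12 ± 0.22, or 2.18-fold (limma adjusted p = 0.000265), by 1.39 in laboratory A and 0.86 in laboratory B. The level was 0.65 higher at day 3 than at day 1 (limma adjusted p of the difference = 0.0255). The pilocarpine minus kainate difference at day 3 was 0.69 (95% interval 0.22 to 1.16; 0.14).

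Microglia and macrophage markers rose at pilocarpine day 3, where Npc2 did, and at other times, where Npc2 did not pass. At pilocarpine day 3, 9 of the 12 tested were higher and 0 lower, with a median change of 0.96, among them Lyz2 at 2.65, C1qc at 1.91 and Cd74 at 1.85. Their summed log2 signal went from 8.99, 9.43 and 10.56 to 10.70, 11.51 and 12.71 in laboratory A and from 8.91, 9.15 and 9.73 to 10.11, 10.73 and 11.35 in laboratory B. At kainate day 3, 10 of 12 were higher, with a median of 0.79, and the Npc2 change of 0.43 ± 0.17 did not pass (limma adjusted p = 0.109). At kainate day 1, 6 of these markers were higher and 1 lower, with a median of 0.42. No tested gene of uptake and movement, Npc2 among them, rose there by more than 0.09. At pilocarpine day 1, 6 markers were higher and 1 lower, with a median of 0.51, and at day 10, 3 were higher and 0 lower, with 0.46. The highest change among the tested genes of uptake and movement was 0.47 and 0.52 at these times, and none of them passed. The part of these markers in the rise of Npc2 was not tested.

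Stard4, a carrier of cholesterol between membranes (1392516_a_at), was lower in 3 comparisons. At pilocarpine day 3 it went from 5.91, 6.46 and 6.77 to 5.78, 6.07 and 6.21 in laboratory A and from 6.16, 6.33 and 6.41 to 4.19, 5.70 and 5.79 in laboratory B. The laboratory B groups did not overlap, and 1 rat lay at 4.19, with the next at 5.49. Stard4 fell by 0.62 ± 0.15 (limma adjusted p = 0.00493), and at kainate days 1 and 3 by 0.45 ± 0.12 and 0.43 (0.00239 and 0.0161). Its second probe set gave −0.42 at kainate day 1. Lrp8, a receptor for Apoe and reelin, was between 0 and 0.22 above controls in all 12 comparisons and passed in none (smallest limma adjusted p = 0.103). Soat1, which esterifies cholesterol for storage, passed in none (0.061).

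Turnover gave the largest fall of any member. Cyp46a1, the cholesterol 24-hydroxylase (1393486_at), was lower at all 3 times after pilocarpine and kainate and at SSSE day 1. Pilocarpine laboratory A controls were at 9.21, 9.66 and 9.97, against 7.99, 8.44 and 8.58 at day 1, 7.63, 8.88 and 9.19 at day 3 and 8.77, 9.13 and 9.73 at day 10. Laboratory B controls were at 9.96, 10.15 and 10.31, against 8.29, 9.08 and 9.78, 8.65, 9.23 and 9.52, and 7.49, 9.04 and 10.09. At days 1 and 3 all 12 rats lay below their controls, and at day 10, 8 of 12 did. Cyp46a1 fell by 1.14 ± 0.20 at day 1, or 2.2-fold (limma adjusted p = 2.49e-05), by 0.98 at day 3 (0.000701) and by 0.86 at day 10 (0.00498).

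After kainate, Cyp46a1 controls were at 9.63, 9.83 and 10.02 in laboratory A and 9.59, 9.97 and 10.20 in laboratory B. Day 1 rats were at 8.62, 8.90 and 9.25 and at 7.69, 8.40 and 9.15, again with no overlap. It fell by 1.21 ± 0.13 at day 1, or 2.31-fold (limma adjusted p = 1.5e-10), by 0.45 at day 3 (0.0211) and by 0.51 at day 10 (0.00911). The level was 0.76 higher at day 3 than at day 1 and 0.70 higher at day 10 than at day 1 (limma adjusted p of the differences 8.32e-06 and 3.16e-05). At day 3 the pilocarpine minus kainate difference was −0.54 (95% interval −0.97 to −0.11) and did not pass limma's test (adjusted p = 0.246).

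SSSE controls were at 9.63, 9.69, 9.70, 9.82 and 9.83 for Cyp46a1, and the 6 day 1 rats at 8.24, 8.42, 8.60, 8.63, 9.54 and 9.62. All 6 were below every control, 4 of them at 8.63 or less and the other 2 just under the lowest control. Cyp46a1 fell by 0.89 ± 0.20 there (limma adjusted p = 0.00858). Granule cell markers fell at the same times. At pilocarpine day 1 and at kainate day 1, 9 of the 12 tested were lower and 0 higher, with median changes of −0.58 and −0.68, and Prox1, a factor that defines these cells, fell by 0.74 in both. At SSSE day 1, 4 were lower and 1 higher. Their part in the fall of Cyp46a1 was not tested.

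**Figure D4:**
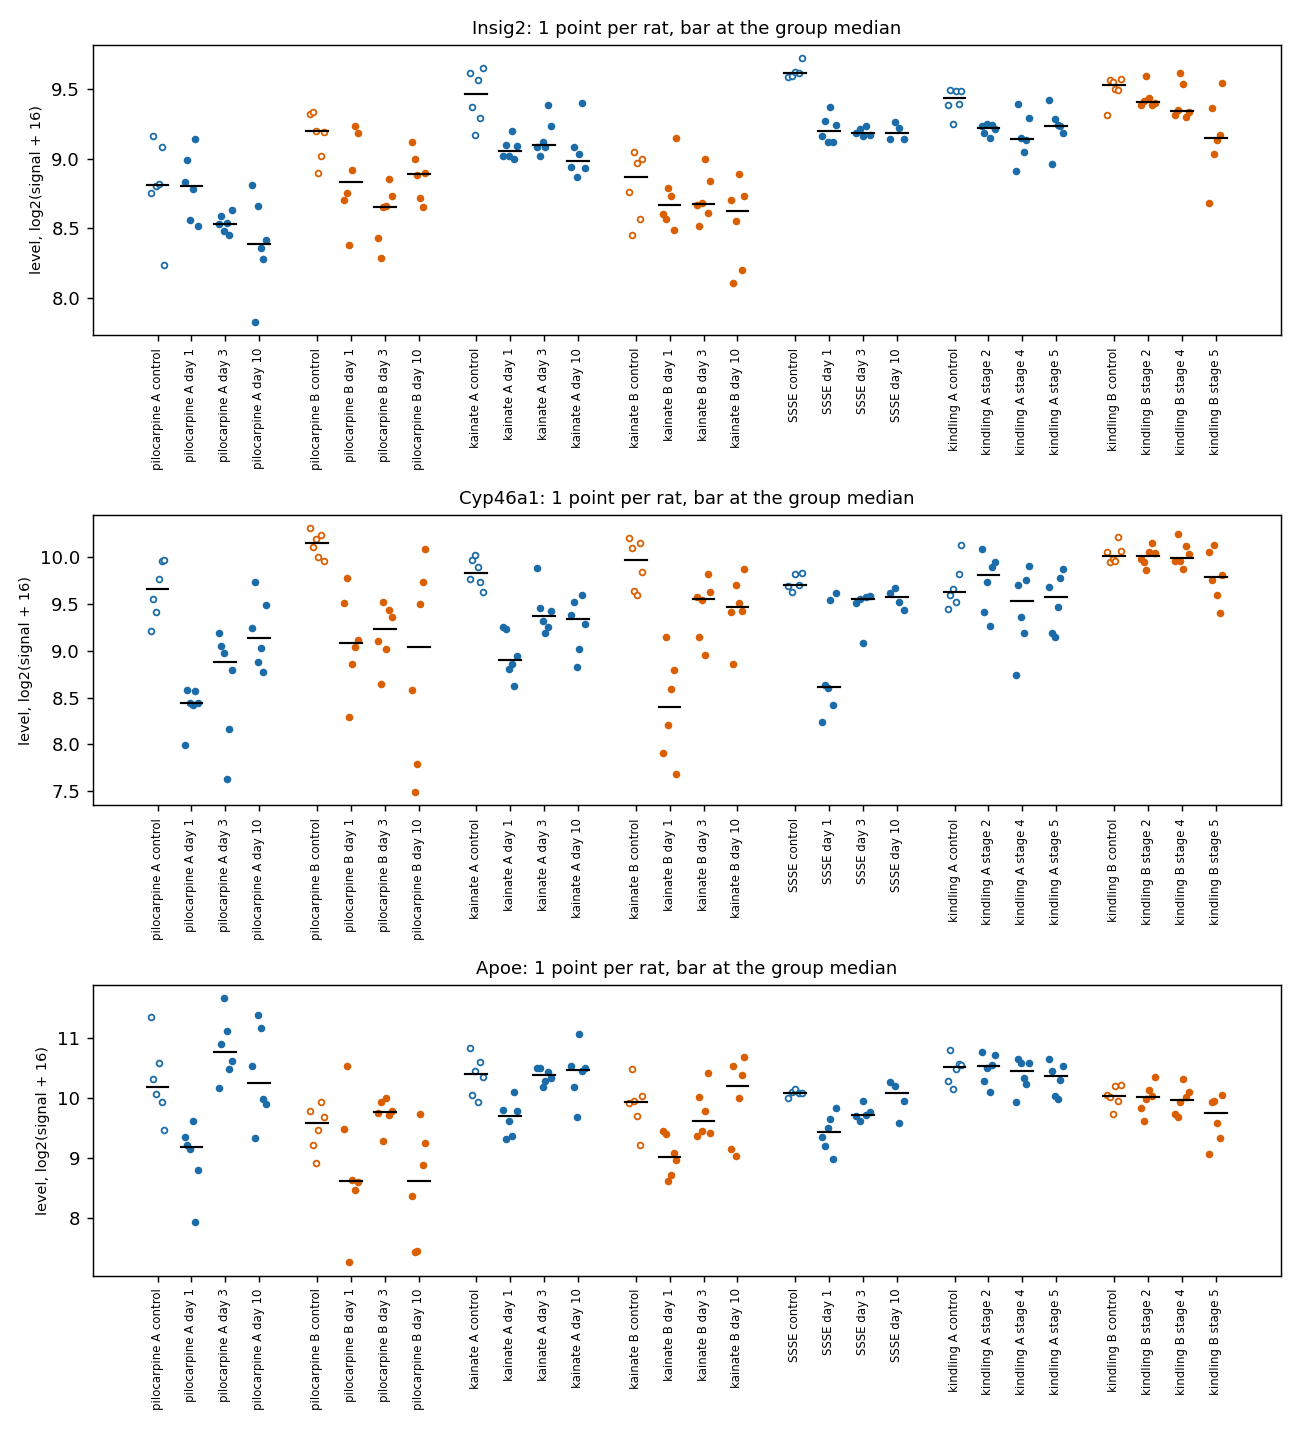
Levels of Insig2, Cyp46a1 and Apoe, as log2(signal + 16), 1 point per rat (open points controls, filled points treated; blue laboratory A or SSSE, orange laboratory B; bars are group medians). All 12 Cyp46a1 points at pilocarpine day 1 and at kainate day 1 lie below the controls of their laboratory, as do all Insig2 points of the treated SSSE groups.

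Apoe, the main lipoprotein of the brain and mostly a product of astrocytes (1370862_at), was lower at day 1 after pilocarpine, after kainate and in SSSE. Pilocarpine controls were at 9.46, 10.18 and 11.35 in laboratory A and 8.91, 9.57 and 9.93 in laboratory B, against 7.93, 9.18 and 9.61 and 7.25, 8.60 and 10.53 at day 1. Kainate controls were at 9.93, 10.39 and 10.83 and at 9.21, 9.93 and 10.47, against 9.31, 9.70 and 10.09 and 8.61, 9.01 and 9.44. SSSE controls were at 10.00, 10.07, 10.08, 10.10 and 10.15, against 8.97, 9.19, 9.34, 9.50, 9.64 and 9.82 at day 1. The SSSE groups did not overlap, while the other 4 pairs did. Apoe fell by 0.97 ± 0.27 after pilocarpine (limma adjusted p = 0.00494), by 0.77 ± 0.16 after kainate (0.00015) and by 0.67 ± 0.13 in SSSE (0.00414). It was 1.37 higher at day 3 than at day 1 after pilocarpine and 0.70 higher after kainate (limma adjusted p of the differences 0.000299 and 0.000796), and no later change against controls passed.

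Astrocyte markers were lower by count and median where Apoe was. At pilocarpine day 1, 8 of the 12 tested were lower and 1 higher, with a median of −0.71, among them Gja1 at −1.57 and Slc4a4 at −1.37, while Gfap rose by 1.10. At kainate day 1, 7 were lower and 1 higher, with a median of −0.49, and at SSSE day 1, 5 and 1, with a median of −0.33. At pilocarpine day 3, 5 were higher and 0 lower, with a median of 0.55. Their summed log2 signal in pilocarpine laboratory A was at 12.64, 12.69 and 13.71 in controls, 11.47, 12.09 and 12.64 at day 1 and 13.28, 13.83 and 14.54 at day 3. In laboratory B it was at 12.34, 12.52 and 12.83, then 11.40, 11.62 and 13.11, and then 12.68, 13.01 and 13.20. From controls to day 1 the median sum went from 12.71 to 12.67 in kainate laboratory A and from 12.64 to 12.39 in laboratory B. In SSSE it went from 12.51 to 12.47. The part of the astrocyte markers in the change of Apoe was not tested.

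Abca1, the pump that loads cholesterol onto Apoe (1382431_at), was the other member that rose. At kainate day 1 it went from 4.68, 6.18 and 6.92 to 6.50, 7.17 and 8.46 in laboratory A and from 5.50, 6.02 and 6.32 to 4.98, 6.93 and 7.60 in laboratory B. The groups overlapped, and 8 of 12 rats were above every control. Abca1 rose by 1.07 ± 0.29, or 2.1-fold (limma adjusted p = 0.00287), but another probe set that passed the filter gave 0.10. The change of 0.86 ± 0.33 at pilocarpine day 3 did not pass (limma adjusted p = 0.077). Of the microglia and macrophage markers, 6 were higher and 1 lower at kainate day 1, with a median of 0.42, and their part in the result was not tested. Abcg1, which exports sterol from cells, fell by 0.32 ± 0.12 at pilocarpine day 1 (limma adjusted p = 0.0385) and by 0.16 ± 0.05 at kindling stage 5 (0.0337).

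Times were compared within each model. After pilocarpine, 9 members differed between days 3 and 1, with 5 higher and 4 lower at day 3, where 23.2% of all genes differed. After kainate, 14 differed between days 10 and 1, with 13 higher and 1 lower at day 10, where 33% of all genes differed. Besides those named above, the 13 included Acat2 by 0.53, Fdft1 by 0.65, Idi1 by 0.68, Pmvk by 0.42, Sqle by 0.45, Stard4 by 0.52, Srebf1 by 0.48 and Srebf2 by 0.44, and the 1 lower was Abca1 by −0.89. Between kainate days 3 and 1, 5 members differed, against 31.1% of all genes, and between pilocarpine days 10 and 1, 3 did, against 15.9%. Between SSSE days 10 and 1, 2 differed, against 5.85% of all genes, but from 0 to 5 did when single rats were left out. In kindling, 0 members differed between stages. Of all genes, 0% did so between stages 4 and 2, 0.0186% between 5 and 4, and 2.65% between 5 and 2.

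The laboratories of a model were also read apart. At pilocarpine day 1, 13 members changed in laboratory A and 8 in laboratory B, where 22.6% and 15.1% of all genes did. At day 3 the counts were 4 and 6 (4.72% and 3.63% of all genes), and at day 10 they were 0 and 5 (0.753% and 8.38%). At kainate day 1, 8 members changed in each laboratory (21.6% and 32.6%), and no member changed in a single kainate laboratory at day 3 (1.47% and 4.29%) or day 10 (2.06% and 0.892%). In each of pilocarpine B day 1, pilocarpine A day 3 and kainate A day 1, 1 of these members was higher. All other members that changed in a single laboratory were lower. In single kindling laboratories 0 members changed at any stage, where 0.976% and 0.344% of all genes did at stage 5. No member differed between the laboratories of a model in any of the 9 tests, where at most 0.0093% of all genes did. Between models, none of the members passed in the other 7 comparisons of the same day, where 0% to 2.36% of all genes did.

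Other genes of the pathway came from lists that hold no member. Of 34 further sterol genes, 27 were tested. At pilocarpine day 1, 4 were higher and 5 lower, where 15.8% and 16.3% of all genes were. At pilocarpine day 3, 4 were higher and 1 lower, against 7.74% and 3.92%, and at kainate day 1, 5 and 3, against 22.2% and 19.4%. Their median changes were 0, 0.08 and 0.09, against 0, 0.02 and 0.02 for all genes. Pltp, a phospholipid carrier of lipoproteins, rose by 1.22 ± 0.29 at pilocarpine day 3 (limma adjusted p = 0.00335). Ch25h, which makes 25-hydroxycholesterol, rose by 0.92 at pilocarpine day 1 and 0.75 at kainate day 1 (3.15e-05 and 0.000104). Cyp7b1, which breaks down such oxysterols, fell by 0.57 and 0.67 (6.52e-05 and 1.56e-07). Clu, the lipoprotein clusterin, rose by 0.84 at pilocarpine day 3 (limma adjusted p = 0.0457). Nr1h2, the oxysterol receptor LXR beta, rose by 0.72 at pilocarpine day 1 (limma adjusted p = 0.000238). Mbtps1, the protease that makes the first cut in SREBP, fell by 0.27 at pilocarpine day 1 (0.0337), by 0.28 at SSSE day 1 (0.0296) and by 0.30 at kindling stage 5 (0.0376).

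Of 15 genes of the fatty acid arm, 13 were tested, and 6 were lower and 1 higher at pilocarpine day 1, where 16.3% and 15.8% of all genes were. The counts at kainate day 1 were 8 and 2, against 19.4% and 22.2%. Scd2, a stearoyl-CoA desaturase, fell by 1.15 ± 0.18 at pilocarpine day 1 (limma adjusted p = 2.54e-06) and by 0.45 at kainate day 1 (3.6e-05). Fads1, a desaturase of polyunsaturated fatty acids, fell by 0.86 at pilocarpine day 1 (3.77e-05) and by 0.55 at kainate day 3 (0.0032), the latter in all 12 rats. Fasn, fatty acid synthase, fell by 0.42 and 0.56 at day 1 of the 2 models (limma adjusted p = 0.0208 and 0.00272) and rose by 0.31 at kindling stage 5 (0.00878). Acsl3, which activates fatty acids, rose by 0.71 and 0.76 at day 1 (0.00252 and 1.59e-05). Mid1ip1, an activator of acetyl-CoA carboxylase, fell by 0.65 at pilocarpine day 1 (limma adjusted p = 0.0053). At pilocarpine day 3, 1 of the 13 was lower and 0 were higher, against 3.92% and 7.74% of all genes.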

How the data were processed

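RNA of laser-captured dentate granule cells was measured on one-colour Affymetrix arrays. The deposited intensity values, 1 per probe set on a linear scale, were made by the authors with MAS5, per the submitters' processing notes, which give no version. Each array had been scaled to a trimmed mean of 150.04 to 150.06, with 2% left out at each end, and array medians ran from 27.99 to 54.17. No depth applies to arrays, whose number limits the precision.

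A value of 16 was added before log2, and repeat arrays of 8 rats were averaged. Of 31099 probe sets, 57 were controls, 20832 carried 1 gene symbol, 436 several and 9774 none. A probe set was kept when above its own array's median in at least 6 rats, and the brightest kept one stood for its gene. Symbols came from the platform annotation, and none changed when updated by gene ID. The 31 members had 56 probe sets, of which 47 passed.

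limma 3.58.1 in R 4.3.3 fitted each model with 1 mean per group. Changes were averaged over laboratories with equal weight, and p-values were adjusted over 10758 genes. Differences between models came from 1 fit of all 28 groups. Values were read with data.table (version 1.17.8) and pandas 2.3.3 and plotted with matplotlib 3.10.9. The fits were tested on simulated data, with each gene's spread pooled over all 28 groups and not taken from the model tested. Of log2 changes of 0.5, 79% were recovered at pilocarpine day 3, 71% at kainate day 1 and 65% at kindling stage 5. At SSSE day 1 it was 26%, and at SSSE day 10 it was 14%. Of changes of 1, at least 90% were recovered in each. False calls were 18 of 197 calls at pilocarpine day 3, 9 of 179 at kainate day 1 and 6 of 169 at kindling stage 5. In SSSE they were 8 of 128 at day 1 and 8 of 112 at day 10. The labels call rats of a group biological replicates. Rat numbers were not used as pairs.

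Members and lists were chosen with earlier results of these data known. All members are named. Values by rat are given for up to 5 members of each role that passed with the same sign in every laboratory, by size of change, and for 8 genes chosen by name, of which Hmgcs1 had no probe set. Up to 4 other pathway genes that passed are named per list, by size, and Mbtps1, Cyp7b1, Fasn and Prox1 were named after their values were seen. Alternatives for the differences between times, models and laboratories were added after seeing the data.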

Additional observations from a re-analysis of the deposited data

Results flagged for a closer look

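Among 252 groups of 4 to 6 rats, 17 held a rat whose gap to the nearest other was large against the range of its group, where chance gives about 1 in 20. Among the synthesis enzymes together, pilocarpine B day 1 rat 1 had a median deviation of −0.12, with the nearest rat at −0.26. For Idi1, kindling A control rat 6 was at 6.67 (nearest 7.28) and kindling A stage 2 rat 4, a rat with contradicting labels, at 7.75 (nearest 7.32).

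For Insig1, kainate A control rat 3 was at 6.85 (nearest 7.23), kainate B day 10 rat 2 at 8.59 (nearest 7.35) and pilocarpine A day 3 rat 5 at 5.01 (nearest 6.35). For Srebf2, kainate B day 1 rat 1 was at 8.17 (nearest 9.24). Cyp46a1 stood apart in pilocarpine A day 1 rat 1 at 7.99 (nearest 8.42) and in SSSE day 3 rat 4 at 9.08 (nearest 9.51). Insig2 did so in kindling B control rat 1 at 9.31 (nearest 9.49) and kindling B stage 2 rat 3 at 9.59 (nearest 9.43).

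Abca1 had the most such rats. They were pilocarpine A control rat 1 at 7.33 (nearest 6.14), pilocarpine A day 1 rat 3 at 4.55 (nearest 6.35), pilocarpine A day 10 rat 3 at 7.85 (nearest 6.07), pilocarpine B control rat 5 at 4.59 (nearest 5.74), kainate B day 3 rat 4 at 7.79 (nearest 6.72) and SSSE day 1 rat 1 at 7.72 (nearest 6.29).

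The pilocarpine and kainate changes differed beyond their error in a pair of genes. The difference was −0.52 for Dhcr7 at day 1 (limma adjusted p = 0.0374) and −0.88 for Insig1 at day 10 (limma adjusted p = 0.048). Dhcr7 passed in all 9 alternatives, with adjusted p from 0.0269 to 0.0452, and Insig1 in 4 of 9.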

How the results depend on the processing

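Of the 58 calls of single members against controls, 45 held in all 10 alternative settings, and none changed sign in them except Insig2 at kainate day 1, where the mean over probe sets gave 0.002. The counts of changed members moved by over 1.5 times in few settings. With all 28 groups in one fit they were 2 at SSSE day 1, 0 at SSSE day 10, 0 at kindling stage 5, 19 at pilocarpine day 1 and 14 at pilocarpine day 10. The mean over probe sets gave 1 at kindling stage 5, and leaving out the doubted rats gave 4 at pilocarpine day 10. Leaving out single SSSE rats gave 3 to 5 at SSSE day 1, 1 to 2 at day 3 and 1 at day 10. At day 3 the 2 came without control rat 5 or day 1 rat 5 or 6.

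The rat number as a replicate block gave 0 at SSSE day 10. Its block fits also gave 0 for both SSSE differences between times that had passed and 2 for pilocarpine minus kainate at day 10. No label ties same-numbered rats, and such pairs correlated below 0.1 on average in every laboratory but kainate A, so they were not treated as pairs. Still, same-numbered rats correlated at −0.009 to 0.101 on average by laboratory, against −0.02 to 0.003 for other rats, and higher than those in every laboratory but SSSE. Of 164 rats, 50 were nearest to their own number, where 27.22 is the number by chance, a hint from the data of a shared effect.

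Calls that were lost in a setting include Insig1 at pilocarpine day 10 with pseudocount 1 (limma adjusted p = 0.0683), no filter (0.0547) or quantile normalization (0.0581), Insig2 at pilocarpine day 3 with the mean over probe sets (0.0853), Apoe at SSSE day 1 with all groups in one fit (0.132), and Stard4 at kainate day 3 with the mean over probe sets (0.0615). Abcg1 and Insig2 at kindling stage 5 and Cyp46a1 at kainate day 3 were lost with all groups in one fit (0.653, 0.0705 and 0.0569), and Srebf1 at pilocarpine day 1 with pseudocount 64, without the filter and with the mean over probe sets. The cause was not tested.

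Differences depended more on the setting. With all 28 groups in one fit, 12 members differed between pilocarpine days 10 and 1, 7 between days 10 and 3, 5 between kainate days 10 and 3, 0 between SSSE days 3 or 10 and day 1, and 2 and 1 between the pilocarpine laboratories at days 1 and 10. With first arrays alone, 1 differed between the pilocarpine laboratories at day 1, and 2 and 3 between pilocarpine and kainate at days 1 and 10. The day 10 model difference was 0 with the mean over probe sets, no filter, pseudocount 1, without doubted rats and without rats with contradicting labels. Without doubted rats, 0 members differed between days 10 and 3 of pilocarpine or of kainate and between SSSE days 3 and 1, and 1 differed between pilocarpine and SSSE at day 3. Without rats with contradicting labels, 0 differed between SSSE days 3 and 1, 1 between SSSE days 10 and 1, and 1 between kindling stages 5 and 2. With no filter or pseudocount 1, 1 differed between pilocarpine days 10 and 3, with the mean over probe sets 1 between kainate days 10 and 3, and with no filter or pseudocount 64, 0 between SSSE days 3 and 1. Without single SSSE rats, 0 to 5 members differed between SSSE days 10 and 1 and 0 to 2 between days 3 and 1.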
